A study of Rattus norvegicus and Homo sapiens with 12 samples.

Results

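Prostaglandin E2 is a lipid messenger, and 10 human genes for its synthesis, its breakdown and its receptors were followed here in DU145 cells, out of 60107 features in the human count table. The symbols were chosen by their place in the pathway and with the F2 and F0 counts of DU145 already known, and each was matched to its Ensembl identifier. The values of the 10 genes in that comparison, with their intervals and calls, are therefore a description and no independent evidence. DU145 is a human prostate cancer cell line. F0 DU145 is the parental population, without exposure to conditioned media (CM), and F2 DU145 is the population recovered after repeated culture in CM of human mesenchymal stem cells (MSCs) bought from a supplier. Both populations were grown in DMEM with 10% FBS. The sample labels give 2 rounds of CM of 72 h, while the description of the series gives 3 rounds, with 48 h of recovery in complete media. Each population gave 3 QuantSeq libraries, described as biological replicates, made from 500 ng of RNA each and read as single ends of 101 bases. The sources do not say whether the 3 F2 samples were selected separately, so the spread between libraries need not cover the spread between selections. The comparison asks how DU145 cells that outlived MSC CM differ from the cells they came from.

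Cells make prostaglandin E2 in 3 steps. Cytosolic phospholipase A2, encoded by PLA2G4A, frees arachidonic acid from membranes. The cyclooxygenases PTGS1 and PTGS2 turn arachidonic acid into prostaglandin H2, and prostaglandin E synthases turn that into prostaglandin E2. HPGD starts its breakdown, PTGR1 reduces the product of HPGD, and the receptors EP2 and EP4 (PTGER2 and PTGER4) carry the signal into cells through Gs and cyclic AMP (cAMP). Prostaglandin E2 is best known as a mediator of inflammation and of the growth and survival of epithelial cells.

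Gene counts per library lay between 15879480 and 16479239. Of the epithelial markers, KRT8, KRT18, KRT19 and EPCAM were called higher in F2 and CDH1 lower (KRT8, KRT18 and EPCAM not with library size alone). The EPCAM call was also lost without a filter, with DESeq2 and in 5 of the 6 fits without 1 library, and that of KRT8 in 3 of these 6. The summed level of 10 MSC markers was 2.54 to 3.51 CPM (each gene's count scaled to a common library size) in F0 and 1.79 to 2.81 CPM in F2, with LUM, POSTN, THY1, CXCL12 and SPARC at 0 in every library. Mitochondrially encoded genes took 5.71% to 6.0% of gene counts in F0 and 10.2% to 10.6% in F2. With these genes left out before scaling, the log2 fold change of PTGES stayed at -1.94. QuantSeq yields 1 fragment near the 3′ end per transcript, so the CPM given here, scaled by the TMM method, is compared between genes without division by length.

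Across all genes that passed the filter on low counts, edgeR called 2599 of 14316, which is 18.2% (adjusted p under 0.05). Of the tested genes, 9.49% were called higher in F2 and 8.67% lower, and 1.67% were called with a change of at least 2-fold. The F0 and F2 libraries did not overlap in 34% of the tested genes. Calls that were higher in F2 made up 52.3% of all calls with TMM and 22.9% (832 higher, 2805 lower) with library size alone. Of the 10 prostaglandin genes, 6 passed the filter and 1 of these, PTGES, was called, lower in F2 and by more than 2-fold. Nothing is read from this count against the background, since the genes were picked with the comparison known. The other 4 genes, PLA2G4A, PTGS1, PTGS2 and HPGD, had at most 11 counts in any library.

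**Figure D1:**
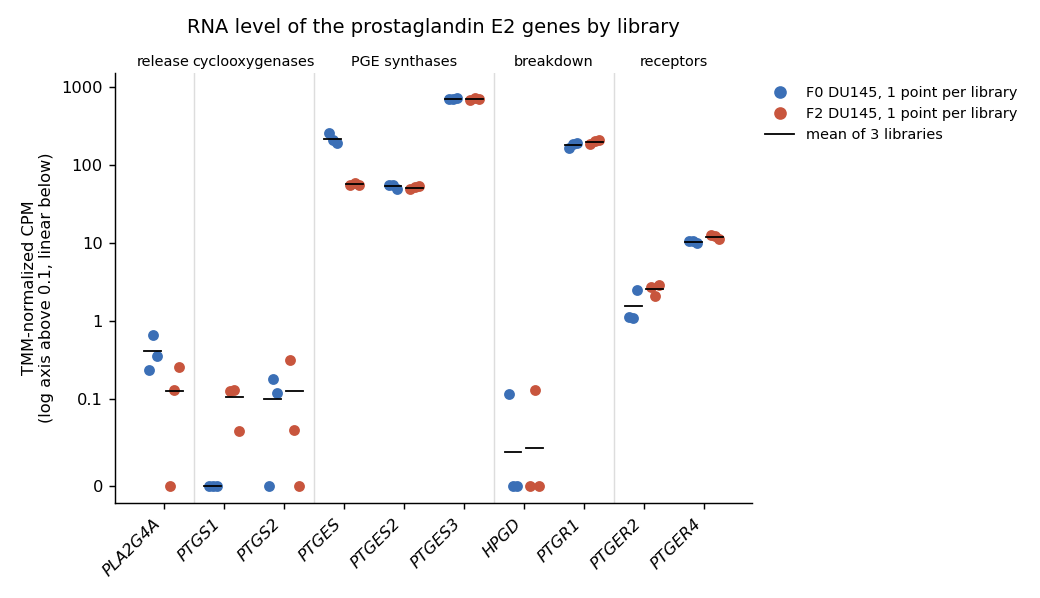
Level of the 10 genes in TMM-normalized CPM (vertical axis, logarithmic above 0.1 and linear below) in each F0 (blue) and F2 (red) library of DU145, with the mean of 3 libraries as a line. PTGES stands at 188 to 252 CPM in F0 and 55.2 to 58.8 CPM in F2, while the cyclooxygenases PTGS1 and PTGS2 and the dehydrogenase HPGD lie near 0 in both populations.

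PLA2G4A and both cyclooxygenases were barely detected in RNA. For PLA2G4A the F0 libraries held 4, 11 and 6 counts, and those of F2 held 0, 2 and 4. Both groups include a library at 4 counts. Its summed count, scaled by library, was 3.25 times as high in F0 as in F2, with an exact 95% interval of 1.27 to 9.84 that covers counting error only. PTGS1, the constitutive cyclooxygenase, had 0 counts in each F0 library and 2, 2 and 1 counts in F2. PTGS2, the inducible cyclooxygenase, had 0, 3 and 2 counts in F0 and 5, 1 and 0 in F2. The 2 groups of PTGS2 overlap, and the ratio of F0 to F2 was 0.773 (95% interval 0.187 to 3.04). A count of 0 allows up to 3 counts per library, or about 0.185 CPM at this depth. PTGS1 stayed within that limit in all 6 libraries, and no fold change is given for it. The exact 95% interval of its F0 to F2 ratio, which covers counting error only, was 0 to 1.01. Both cyclooxygenases were thus at or close to the limit of detection in each population.

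The 3 prostaglandin E synthases were all expressed, and they differed in level and in change. PTGES encodes the microsomal synthase, the inducible enzyme of the 3, and is annotated at chromosome 9, 129738331 to 129753047, minus strand (GRCh38, GENCODE release 29). Its counts were 4265, 3465 and 3182 in F0 and 874, 905 and 866 in F2. As CPM these were 252, 209.9 and 188 in F0 and 55.9, 58.8 and 55.2 in F2. Every F2 library lay far below every F0 library, and 34% of all tested genes had groups that did not overlap. The mean fell from 217 ± 32.3 CPM (SD, n = 3) to 56.6 ± 1.89 CPM (n = 3), 3.83-fold lower in F2, a log2 fold change of -1.94 with a standard error (SE) of 0.08. Fewer cells that express PTGES and less PTGES RNA per cell cannot be told apart in these bulk samples.

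PTGES2, the membrane-associated synthase, had 55.6, 55.0 and 48.8 CPM in F0 and 48.3, 52.1 and 53.0 CPM in F2. The groups overlap, and the log2 fold change was -0.05 with a 95% interval of -0.19 to 0.08. PTGES3, the cytosolic synthase, is also known as p23, a co-chaperone of HSP90. It had 702, 701 and 705 CPM in F0 and 680.0, 711 and 687 CPM in F2. These groups overlap too, with a log2 fold change of -0.02 (95% interval -0.10 to 0.06).

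The synthase RNAs were therefore mixed differently in the populations. PTGES supplied 24.9%, 21.7% and 20.0% of the counts of the 3 synthases in the F0 libraries and 7.13%, 7.15% and 6.94% in F2. The share of PTGES3 was 72.3% ± 2.65 (SD, n = 3) in F0 and 86.5% ± 0.161 in F2, and that of PTGES2 was 5.46% ± 0.261 and 6.39% ± 0.256. These shares restate the counts above and are no separate evidence. In F0, PTGES was expressed at a level higher than that of 94.5% of tested genes.

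PTGES varied more between F0 libraries than most genes of its level. Its coefficient of variation (CV) over the 3 F0 libraries was 14.9%, higher than that of 99.4% of the 3750 genes with a mean of at least 50 CPM, whose median CV was 3.72%. In F2 the CV of PTGES was 3.34%, beside a median of 3.88%. The lowest F0 library still had 188 CPM, above the highest F2 library at 58.8 CPM. Without F0 replicate 1, the library with the most PTGES, the log2 fold change was -1.81.

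**Figure D2:**
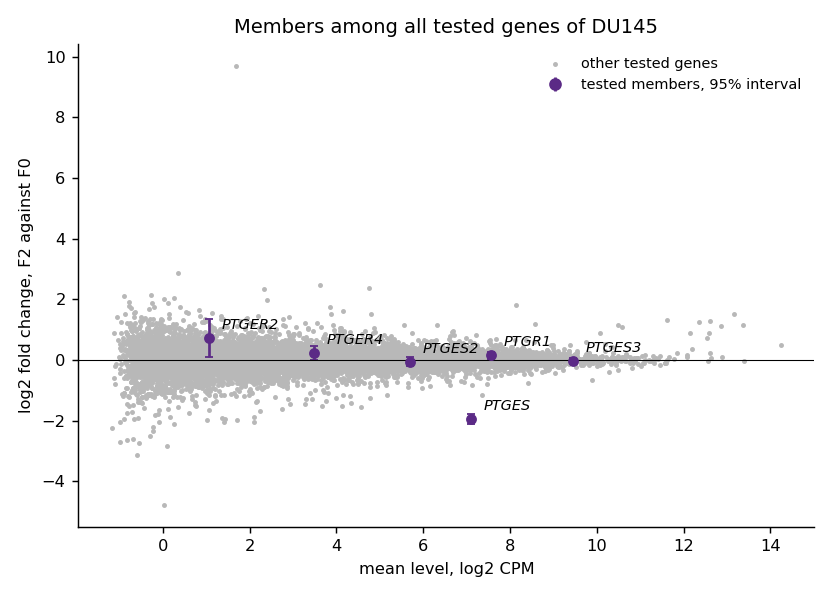
Mean level (horizontal axis, log2 CPM) and F2 against F0 log2 fold change (vertical axis) for each tested gene of DU145 (grey) and for the 6 tested prostaglandin genes (purple, with 95% intervals). PTGES lies at -1.94, apart from the other 5, which lie between -0.05 and 0.72.

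The breakdown genes differed sharply in level. HPGD, the dehydrogenase that inactivates prostaglandin E2 by oxidizing its 15-hydroxyl group, had 2, 0 and 0 counts in F0 and 0, 2 and 0 in F2. All 6 libraries were within the 3 counts that a 0 allows, so no fold change is given. PTGR1 acts downstream and reduces 15-keto prostaglandins, and it also reduces leukotriene B4 metabolites. It had 162, 182 and 191 CPM in F0 and 186, 201 and 208 CPM in F2. The lowest F2 library lay below the highest F0 library, and the log2 fold change was 0.15 (SE 0.06, 95% interval 0.03 to 0.27). PTGR1 was not called over all genes. It was called without the filter on low counts, with the replicate number as a block and without F0 replicate 3.

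Both receptors had low RNA levels. PTGER4, which encodes EP4, had 10.6, 10.5 and 10.0 CPM in F0 and 12.7, 12.3 and 11.3 CPM in F2. The F2 libraries all lay above the F0 libraries, and 34% of all tested genes had groups that did not overlap. The log2 fold change of 0.22 (95% interval -0.01 to 0.45) was not called. PTGER2, which encodes EP2, had 19, 18 and 42 counts in F0 and 43, 32 and 46 in F2. F0 replicate 3 lay among the F2 libraries, while the other 2 F0 libraries were lower. The log2 fold change was 0.72 (SE 0.30, 95% interval 0.09 to 1.35, without adjustment for the number of genes) and was not called over all genes. Without F0 replicate 3 the value was 1.22, and edgeR called it.

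By level in F0, the order was PTGES3 (703 CPM), PTGES (217 CPM), PTGR1 (178 CPM), PTGES2 (53.1 CPM), PTGER4 (10.4 CPM) and PTGER2 (1.57 CPM), followed by the 4 genes near 0. The libraries of PTGES and PTGR1 overlapped in F0, so these neighbours are not apart beyond their spread. In F2 the order was PTGES3 (693 CPM), PTGR1 (198 CPM), PTGES (56.6 CPM), PTGES2 (51.2 CPM), PTGER4 (12.1 CPM) and PTGER2 (2.59 CPM). PTGES had moved from the second place to the third, close above PTGES2. The libraries of these 2 synthases did not overlap in F2, with 55.2 CPM as the lowest for PTGES and 53.0 CPM as the highest for PTGES2. In F0 the PLA2G4A libraries lay above those of the other 3 low genes, and in F2 the 4 overlapped.

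Reads from look-alike or overlapping genes could disturb such values. The last 500 bases of the longest coding transcript of each of the 10 genes were searched in windows of 101 bases. Of 400 windows per gene, 0 occurred without a mismatch in an annotated transcript of another gene, PTGES3 with its pseudogenes included. Copies with mismatches and other 3′ ends were not searched. PTGR1 overlaps ZNF483 and AL135787.1 on the opposite strand and PTGER4 overlaps TTC33 there. PTGS1 and PTGES3 each overlap an annotated gene on their own strand, AL162424.1 and RN7SL809P. The sources used here do not say whether counting used strand, so part of the PTGR1 and PTGER4 counts could come from their antisense partners. PTGES has no overlapping gene in this annotation.

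Around PTGES on chromosome 9, 7 other tested genes have their annotated start within 250 kb of that of PTGES. PRRX2, a paired-related homeobox gene whose start lies at -87.4 kb (toward lower coordinates), fell from 18.7 to 11.9 CPM (log2 fold change -0.65, SE 0.10, edgeR adjusted p = 9.3e-05). Its F0 and F2 libraries did not overlap, which was so for 34% of all tested genes. PRRX2 was the 1 called gene of these 7, beside 18.2% called among all tested genes. The other 6, NTMT1, ASB6, TOR1B, TOR1A, USP20 and C9orf78, were not called, with log2 fold changes from -0.22 for TOR1B to 0.02 for NTMT1. At 50.1 kb, TOR1B was the nearest of the 7.

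**Figure D3:**
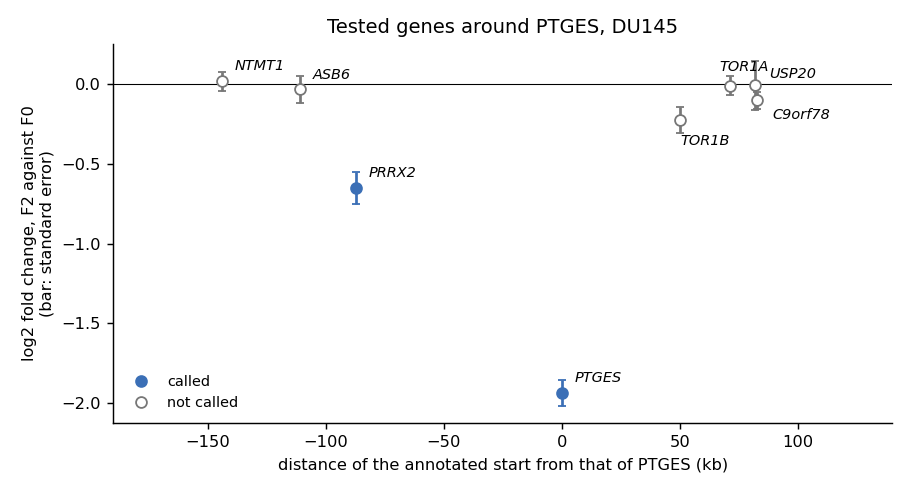
F2 against F0 log2 fold change (vertical axis, bars are SE) of PTGES and the 7 tested genes around it, by the distance of their annotated starts from that of PTGES (horizontal axis, kb). PTGES at -1.94 and PRRX2 at -0.65 are called, and the other 6 lie between -0.22 and 0.02.

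The genes whose log2 CPM followed PTGES most closely over the 6 libraries were HEATR5A (Pearson r = 0.998), NCOA7 (0.997), RPL18 (0.997), MFSD12 (0.997) and IFT81 (0.997), of 8645 genes with a mean of at least 10 CPM. NCOA7 is a nuclear receptor coactivator, RPL18 a protein of the large ribosomal subunit and IFT81 a component of transport in cilia. All 5 were lower in F2, by log2 fold changes of -0.16 (RPL18) to -0.70 (NCOA7), so none fell as far as PTGES. Over 6 libraries from 2 populations, r mostly reflects the step between the populations, and 325 genes had r above 0.95.

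Genes around the pathway were counted from a list of 106 in 12 groups, drawn up with earlier results of these data known. Of these, 80 were tested and 26 were called (32.5%, beside 18.2% of all tested genes), 6 higher and 20 lower in F2. The median log2 fold change was -0.06, beside 0.00 for all tested genes. All 26 kept their direction in every alternative that gave a value, and 16 of the 26 calls held whichever library was left out. ACSL5, AKR1C1, AKR1C2 and SNAI2 gave no value under the filter that asks for at least 10 counts in every library. With library size alone, which shifts the median of all genes by -0.09, 37 genes of the list were called. Among the called genes, DAGLA, MGLL, ACSL3, ACSL4, ACSL5, AKR1C2, AKR1C3, FKBP4, GNAS, PDE4D, NR4A1 and CEBPB overlap an annotated gene on the opposite strand, and reads of such partners cannot be told apart if counting did not use strand.

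**Figure D4:**
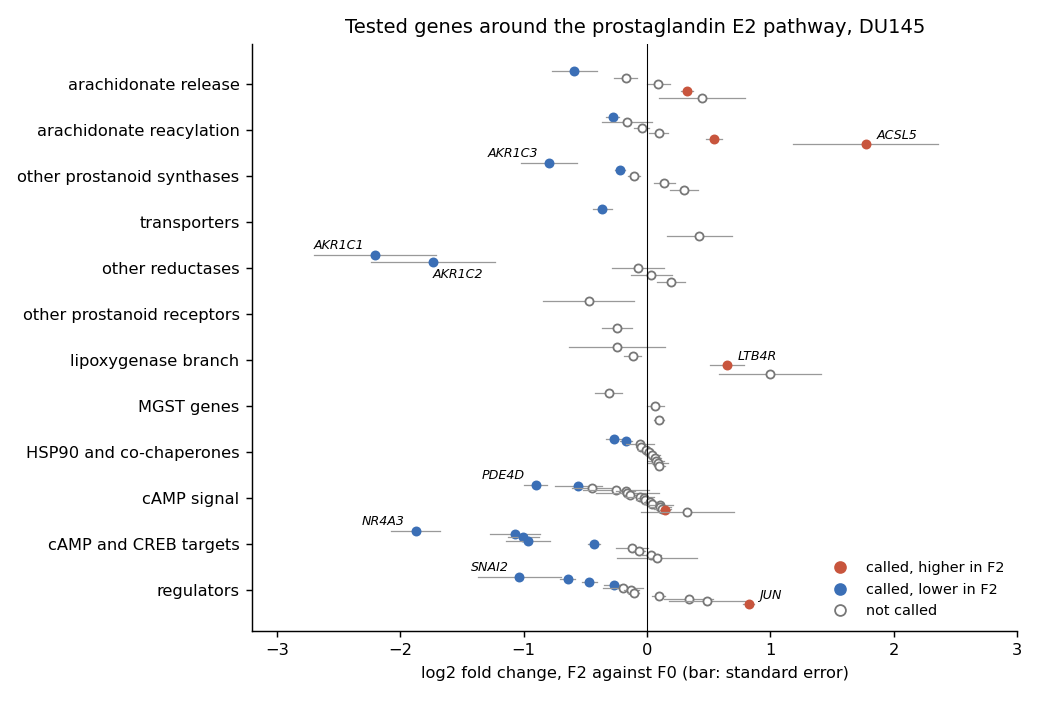
F2 against F0 log2 fold change (horizontal axis, bars are SE) for the 80 tested genes of the list, by group. Filled points are called, blue lower and red higher in F2. The 5 called genes among the cAMP and CREB targets all lie below 0.

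Upstream, where arachidonic acid is freed from lipids, 5 of 10 genes were tested and 2 were called (40%, beside 18.2% of all tested genes). MGLL, monoacylglycerol lipase, which can release arachidonic acid from 2-arachidonoylglycerol, rose from 116 ± 2.42 to 146 ± 1.48 CPM (log2 fold change 0.32, edgeR adjusted p = 5.6e-05). DAGLA, which makes 2-arachidonoylglycerol, was lower at 4.70 and 3.12 CPM (-0.59, edgeR adjusted p = 0.027), a call that 4 of the 6 fits without 1 library lose. Of the phospholipases A2, PLA2G12A had 22.9, 22.05 and 24.3 CPM in F0 and 19.8, 23.2 and 18.5 CPM in F2, and PLA2G4C had 0.67 to 1.48 CPM in F0 and 0.91 to 1.85 CPM in F2. Neither was called, while PLA2G2A and PLA2G5 had 0 counts in all libraries. PLA2G4B had 0 counts as well, and it overlaps a readthrough gene, so its reads may be counted elsewhere.

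Of the genes that return arachidonic acid to lipids, 6 of 7 were tested and 3 were called (50%, beside 18.2% of all tested genes). ACSL4, an acyl-CoA synthetase that prefers arachidonic acid, had 45.9, 53.5 and 51.8 CPM in F0 and 74.7, 69.6 and 76.1 CPM in F2. The groups did not overlap, which was so for 34% of all tested genes. ACSL4 rose by 0.54 on the log2 scale (SE 0.06, edgeR adjusted p = 5.9e-06). ACSL3 fell from 112 to 92.2 CPM (-0.28, edgeR adjusted p = 0.0012). ACSL5 was called higher at under 1 CPM (0.258 in F0 and 0.901 in F2), and 5 of the 6 fits without 1 library lose that call. It passed the filter on low counts only through F2, with 8, 5 and 0 counts in F0 and 10, 20 and 12 in F2. MBOAT7, which puts arachidonic acid into phosphatidylinositol, was not called, at -0.04.

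Prostaglandin H2 can also feed other prostanoids. Of 8 genes for these and for reduction to prostaglandin F, 5 were tested and 2 were called (40%, beside 18.2% of all tested genes). AKR1B1, an aldo-keto reductase with prostaglandin F synthase activity, fell from 235 ± 4.80 to 202 ± 3.18 CPM (log2 fold change -0.22, edgeR adjusted p = 0.0014). AKR1C3, which makes prostaglandin F from prostaglandin H2 and D2, was lower at 3.58 and 2.06 CPM (-0.80, edgeR adjusted p = 0.018). Its relatives AKR1C1 and AKR1C2 were called lower at 1.41 and 0.299 CPM (-2.21, edgeR adjusted p = 0.0036) and at 0.872 and 0.258 CPM (-1.74, edgeR adjusted p = 0.021). AKR1C1 had 15, 19 and 37 counts in F0 and 4, 2 and 8 in F2. For AKR1C2 these were 20, 11 and 13 in F0 and 2, 7 and 3 in F2. Both passed the filter on low counts only through F0, the group where they were higher. The AKR1C genes are near-identical copies, so how their reads were split is uncertain, and the calls of AKR1C3 and AKR1C2 were lost without 1 or more of the libraries. AKR1C1 and AKR1C2 were the 2 called genes among the 5 other reductases, all of them tested (40%, beside 18.2% of all tested genes). With at least 10 counts asked of every library, 3 of the 5 were tested and 0 were called. PTGR2 and PTGR3, the relatives of PTGR1, were not called, at -0.07 and 0.04. The exporter ABCC4, which carries prostaglandin E2 out of cells, fell from 39.1 ± 2.47 to 30.3 ± 2.35 CPM (-0.36, edgeR adjusted p = 0.0022), while SLCO2A1, the importer, was at 1.30 to 1.66 CPM in F0 and 1.79 to 2.40 CPM in F2 and was not called.

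Among the other prostanoid receptors, 2 of 7 were tested and neither was called by edgeR. At an unadjusted edgeR p under 0.05 the count was also 0, beside 4396 of all 14316 tested genes. PTGER1 (EP1) was at 0.38 to 2.18 CPM over the 6 libraries, and PTGER3 (EP3) had 0 counts in all of them. By these counts EP4 had the highest RNA level of the 4 receptors for prostaglandin E2, although antisense TTC33 reads could add to it. TBXA2R, the thromboxane receptor, was at 8.35 to 11.3 CPM. In the lipoxygenase branch, 4 of 12 genes were tested and 1 was called (25%, beside 18.2% of all tested genes). This was LTB4R, a receptor for leukotriene B4, which rose from 6.27 to 9.83 CPM (log2 fold change 0.65, edgeR adjusted p = 0.0022). It overlaps LTB4R2 on its own strand. ALOX5, the enzyme that starts leukotriene synthesis, had 0 counts in all libraries.

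PTGES belongs to the same protein family as the microsomal glutathione transferases MGST1, MGST2 and MGST3, none of which edgeR called. An unadjusted edgeR p under 0.05 was reached by 2 of them, beside 4396 of all 14316 tested genes. The log2 fold changes of MGST1, MGST2 and MGST3 were 0.10, -0.31 and 0.07. The HSP90 genes and co-chaperones, partners of PTGES3, were followed too. All 11 were tested and 2 were called lower, a share of 18.2% that is the same as that of all tested genes. STIP1 had a log2 fold change of -0.27 (edgeR adjusted p = 0.010) and FKBP4 one of -0.17 (edgeR adjusted p = 0.023), and each call was lost without 1 or more of the libraries. HSP90AA1 and HSP90AB1, at 7299 and 6125 CPM in F0, had values of 0.10 and -0.05.

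The signal of EP2 and EP4 runs through Gs, adenylyl cyclase, protein kinase A and CREB, and 3 of 17 tested genes of this chain were called, a share of 17.6% beside 18.2% of all tested genes. PDE4D, a phosphodiesterase that degrades cAMP, had 34.9, 36.5 and 36.2 CPM in F0 and 19.8, 16.2 and 21.6 CPM in F2. All F2 libraries were below the F0 libraries, and 34% of all tested genes had groups that did not overlap. PDE4D fell by 0.90 on the log2 scale (SE 0.09, edgeR adjusted p = 6.9e-07). CRTC1, a coactivator of CREB, was lower (-0.56, edgeR adjusted p = 0.047), and GNAS, which encodes the alpha subunit of Gs, was higher (0.14, edgeR adjusted p = 0.021). CRTC1 and GNAS each lost their call in most fits without 1 library. The call of CRTC1 was also lost with DESeq2 and without a filter, and that of GNAS with library size alone. The catalytic subunit PRKACA, at 110 CPM in F0, was at -0.02, and CREB1 was at 0.12, not called.

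Of 9 tested genes that are known targets of cAMP and CREB, 5 were called (55.6%, beside 18.2% of all tested genes). Each of these 5 was lower in F2. The 9 had a median log2 fold change of -0.43. These targets answer to other signals as well. NR4A3, an orphan nuclear receptor, had 7.14, 7.21 and 5.98 CPM in F0 and 1.53, 1.62 and 2.36 CPM in F2. It fell by 1.88 on the log2 scale (SE 0.20, edgeR adjusted p = 1.1e-06), close to the size seen for PTGES. NR4A1 had 14.05, 14.2 and 17.0 CPM in F0 and 6.97, 7.01 and 8.61 CPM in F2 (-1.0, edgeR adjusted p = 1.1e-05). NR4A2 had 5.43, 6.0 and 5.21 CPM in F0 and 3.32, 2.79 and 1.79 CPM in F2 (-1.07, edgeR adjusted p = 0.00086). For each of the 3 NR4A genes, all F2 libraries were below all F0 libraries. Of all tested genes, 34% had groups that did not overlap.

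The other called targets were PER1, a clock gene, at -0.96 (edgeR adjusted p = 0.00065) and AREG, the EGF receptor ligand amphiregulin, at -0.43 (edgeR adjusted p = 2.3e-06), both named after their values were seen. AREG was the most abundant of the 5 and fell from 285 ± 9.92 to 211 ± 10.1 CPM. All 5 calls held whichever library was left out, and with each other scaling, filter and tool. FOS, CREM, DUSP1 and IRS2 were not called, with log2 fold changes of -0.12 to 0.08, so the group did not move as a whole. SIK1 had 0 counts in all libraries, and since it has a near-identical copy, SIK1B, its reads may not have been assigned.

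**Figure D5:**
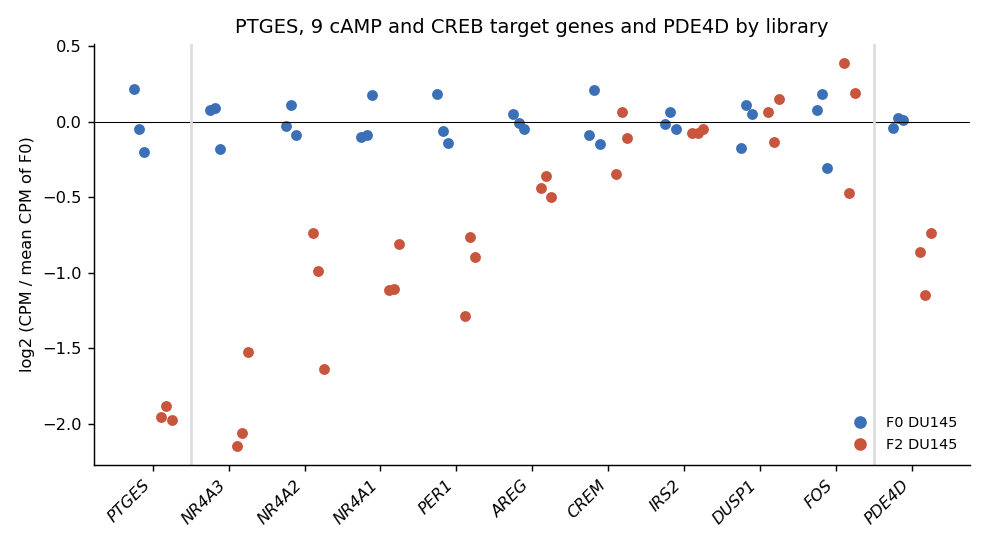
Level of PTGES, of 9 cAMP and CREB target genes and of PDE4D in each DU145 library, as log2 of the CPM over the mean CPM of F0 (vertical axis), with 1 point per library in F0 (blue) and F2 (red). The F2 points of NR4A3, NR4A2, NR4A1, PER1, AREG and PDE4D all lie below their F0 points, while those of CREM, IRS2, DUSP1 and FOS do not all do so. The groups did not overlap in 34% of all tested genes.

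Known regulators of PTGES, PTGS2 or HPGD RNA were listed too, and 5 of 11 tested genes were called (45.5%, beside 18.2% of all tested genes). JUN, a subunit of AP-1, had 105, 108 and 111 CPM in F0 and 189, 187 and 197 CPM in F2, a rise of 0.82 on the log2 scale (SE 0.05, edgeR adjusted p = 3.2e-10). CEBPD fell from 84.6 ± 4.87 to 54.2 ± 2.92 CPM (-0.64, edgeR adjusted p = 3.1e-07). CEBPB, like CEBPD a C/EBP factor of inflammatory genes, fell from 94.6 ± 5.0 to 68.4 ± 3.97 CPM (-0.47, edgeR adjusted p = 1.1e-05). EGR1, a zinc finger factor known to drive PTGES transcription, was lower at 37.8 and 31.3 CPM (-0.27, edgeR adjusted p = 0.019). SNAI2, known as a repressor of HPGD, was lower at 1.81 and 0.880 CPM (-1.03, edgeR adjusted p = 0.038). SNAI2 passed the filter on low counts only through F0, the group where it was higher. With at least 10 counts asked of every library, 10 regulators were tested, with 1 called higher and 3 lower. The calls of EGR1 and SNAI2 did not hold in most fits without 1 library, and CEBPB and EGR1 are named after their values were seen.

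Of the inflammatory inducers of PTGES, IL1A and IL1B had 0 counts in all 6 libraries and TNF had at most 2 counts in a library. The means of the receptor IL1R1 were 6.42 CPM (F0) and 5.60 CPM (F2), and the NF-κB subunits NFKB1 and RELA were at 77.2 and 123 CPM in F0. None of these 3 was called, with log2 fold changes of -0.19, -0.13 and 0.09. ELAVL1 and ZFP36, which bind AU-rich RNA such as that of PTGS2, were not called either, at -0.11 and 0.49. Whether any of these genes has a part in the level of PTGES was not tested.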

How the data were processed

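QuantSeq 3′ RNA libraries of 3 F0 and 3 F2 DU145 samples were analysed. The authors deposited raw counts per gene from the Bluebee platform, without normalization. The submitters' processing notes name STAR 2.5.2a, HTSeq 0.6.0 and GRCh38, and the handling of strand is not given in the sources used here. The filter on low counts was filterByExpr, with minimums of 10 counts and of 15 in total. The first minimum, taken as the CPM of about 10 counts, applied to at least 3 libraries of any group. Tested genes can therefore have fewer than 10 counts in some libraries. After TMM scaling, F2 and F0 were compared by edgeR 4.0.16 (quasi-likelihood F-test, R 4.3.3, limma 3.58.1) at a Benjamini-Hochberg adjusted p under 0.05 over 14316 genes. Tests were two-sided. The fit was tested on data simulated from its own means and dispersions, which cannot show how well the model suits these libraries. A count of 0 allows up to 3 counts per library. The exact intervals of summed counts and this limit cover counting error only. Intervals and SE of log2 fold changes come from the quasi-likelihood fit, which includes the spread between libraries. PCR duplicates could not be removed. Reads outside genes (9.60% to 10.0% in F0 and 11.3% to 11.9% in F2) stayed out of library sizes. So did ambiguous reads (1.49% to 1.50% in F0 and 1.36% to 1.40% in F2). These percents leave out alignments to more than 1 place, which were not counted to genes either. Such alignments came to 0.59 to 0.62 per gene count in F0 and 0.54 to 0.57 in F2. No 2 libraries of a group agreed within sampling noise.

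Of 60107 identifiers, 56104 were matched to symbols and 56531 to GENCODE release 29. The 10 genes and all gene lists were chosen with earlier results of these data known. Named are the 10 genes, in each group of the list the up to 3 called genes with the largest absolute log2 fold change, the 5 genes most like PTGES, and its tested neighbours within 250 kb. Other genes are given as members of a group. Alternatives were median-ratio size factors, library size alone, 2 other filters, DESeq2 1.42.0, a replicate block, no mitochondrially encoded genes, and each library left out in turn. The 6 PAIII libraries were not analysed here, since no table used here pairs the rat identifiers with symbols, and human promoter and protein sequences were not used. Figures were drawn with matplotlib 3.10.9.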

Additional observations from a re-analysis of the deposited data

How the results depend on the processing

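The log2 fold change of PTGES ranged from -2.03 to -1.81 over 13 alternatives. Of the 10 genes, 1 was called, and 2 were with library size alone (PTGES3 added, log2 fold change -0.11), 3 without a filter (PTGR1 and PTGER2 added) and 2 with the replicate block (PTGR1 added). Leaving out 1 library gave 1 to 3 of these genes, with 3 (PTGR1 and PTGER2 added) without F0 replicate 3. Leaving out 1 library gave 1670 to 2621 called genes over the whole table, beside 2599 with all 6, with 1670 without F0 replicate 2 and 1757 without F2 replicate 1. The cause was not tested. The replicate numbers were not taken to pair the samples: deviations from the group means correlated at 0.17, -0.04 and 0.17 between samples of the same number, replicates 1 and 3 correlated best with their own number and replicate 2 did not, and the replicate block moved the called genes from 2599 to 2867. Of the 26 called genes of the pathway list, 10 lost their call without at least 1 library: DAGLA, ACSL5, AKR1C3, AKR1C2, STIP1, FKBP4, GNAS, CRTC1, EGR1 and SNAI2. The number called in that list ranged from 18 (without F2 replicate 1) to 37 (library size alone), and DESeq2 called 21. DAGLA, ACSL5, AKR1C2, CRTC1 and SNAI2 lost their call with DESeq2. The same fit in PAIII was not run. PTGS1 and HPGD stayed within 3 counts in every library.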
